A study of Arabidopsis thaliana with 4 samples.

Results

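The genes described here are 9 Arabidopsis thaliana loci for enzymes that modify xyloglucan in the cell wall. They were chosen by locus, from family and function, with earlier results of these data known: 8 belong to the xyloglucan endotransglucosylase/hydrolase (XTH) family and 1 is the alpha-xylosidase gene XYL1. They are 9 of the 8346 genes in the table, and 7 of the 9 had reads, 321 of 89792 in all. The measurement was TAIL-seq, which sequences the 3′ ends of RNA and so gives the poly(A) tract and whatever nucleotides follow it. All 4 libraries came from 2-week-old seedlings grown on soil with 16 h of light and 8 h of darkness. The genotypes were the double mutant urt1-1 xrn4-3 (urt1 xrn4 below), the single mutants urt1-1 (urt1) and xrn4-3 (xrn4), both from SALK lines, and the wild type (WT), which the labels give as ecotype Col0. URT1 is the enzyme that puts uridines on mRNA tails, and XRN4 is a cytoplasmic exoribonuclease that degrades RNA from the 5′ end. Each genotype is represented by 1 library, so no difference between genotypes has a replicate check and no test was possible.

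Xyloglucan is a glucan with xylose-containing side chains that binds cellulose in the primary wall of growing plant cells. XTH enzymes cut a xyloglucan chain and join the new end to another chain, or to water, and through this they act on wall loosening and repair during growth. XYL1 acts at the other end of the process, removing xylose from the side chains of xyloglucan fragments in the wall. Uridines on a shortened poly(A) tail mark the mRNA at a late step of its life, after most of the tail has been removed, and XRN4 degrades decapped mRNA.

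The libraries held 26300 reads for urt1 xrn4, 43391 for urt1, 9797 for xrn4 and 10304 for WT, and every A tract was between 4 and 30 nt long. Levels are given as CPM, the count scaled to 1000000 table reads per library, with exact Poisson 95% intervals, which cover counting error only. Because the table holds short tails, a level says what share of the short-tailed ends a gene has and does not measure mRNA abundance, and each read is 1 end whatever the transcript's length. In seedlings, which hold many cell types, fewer cells of a type and less RNA per cell cannot be told apart. A count of 0 allows up to 114 CPM in urt1 xrn4, 69.1 in urt1, 306 in xrn4 and 291 in WT (3 counts per library). The urt1 library stood apart in depth, and urt1 and urt1 xrn4 had the most repeated reads: distinct ends were 50% of reads in urt1 xrn4, 47.1% in urt1, 58.7% in xrn4 and 64.2% in WT. The targeted genes URT1 and XRN4 had 0 reads in every library, so their transcripts could not check the labels. All 6 green tissue markers were read in all 4 libraries, and their summed level was 28593 CPM in urt1 xrn4, 36736 in urt1, 47463 in xrn4 and 48234 in WT. Of 6 root markers, 5 were at 0 in all libraries and SCR had 2 reads, both in urt1.

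The 9 genes together had 4905 CPM in urt1 xrn4 (4095 to 5828; 129 reads), 3388 in urt1 (2862 to 3982; 147 reads), 817 in xrn4 (353 to 1609; 8 reads) and 3591 in WT (2528 to 4950; 37 reads). The xrn4 library was thus the low one, and the interval of urt1 lay within that of WT. The interval of urt1 xrn4 lay above that of urt1. The log2 ratio between them was 0.53 (exact conditional interval 0.18 to 0.88), and TMM scaling took it to 0.057. Which genes the reads came from differed between WT and both of these libraries. XTH4 and XTH7, a pair singled out after their values were seen, made up 81.4% of the reads of the 9 genes in urt1 xrn4 (exact Clopper-Pearson 95% interval 73.6 to 87.7), 88.4% in urt1 (82.1 to 93.1), 7 of 8 reads in xrn4 and 16.2% in WT (6.19 to 32.0). XYL1 alone made up 8.53% of them in urt1 xrn4 (4.33 to 14.7), 10.2% in urt1 (5.82 to 16.3) and none of 8 in xrn4, against 40.5% in WT (24.8 to 57.9).

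**Figure D1:**
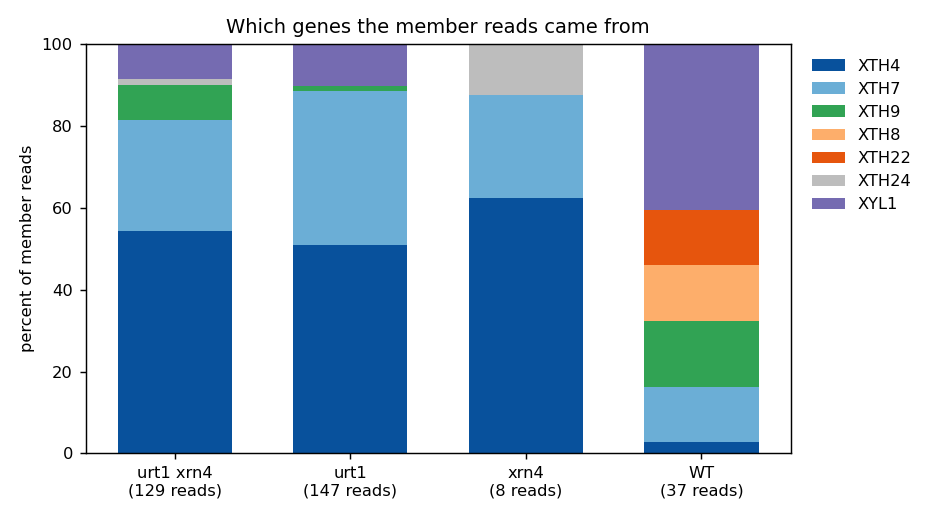
Stacked bars show, for each library, the percent of the reads of the 9 genes that came from each gene (bars start at 0; the read number is under each bar). XTH4 and XTH7 fill 81.4% of the urt1 xrn4 bar and 88.4% of the urt1 bar, while the WT bar is shared by 6 genes with XYL1 the largest part at 40.5%.

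Among the genes with enough reads to compare, the largest difference from WT was in XTH4 (AT2G06850), which encodes an endotransglucosylase first described as EXGT-A1. It had 70 reads in urt1 xrn4 (2662 CPM, 2075 to 3363), 75 in urt1 (1728 CPM, 1360 to 2167), 5 in xrn4 (510.4 CPM, 166 to 1191) and 1 in WT (97.0 CPM, 2.46 to 541). The intervals of urt1 xrn4 and urt1 lay above that of WT. From high to low the order was urt1 xrn4, urt1, xrn4 and WT, and the intervals of neighbours overlapped except those of urt1 and xrn4. At its share in urt1, XTH4 would have had 17.8 reads in a library of the size of WT. The log2 ratio, with 0.5 added to each count, was 3.58 for urt1 over WT (exact conditional interval 1.63 to 9.48), 4.20 for urt1 xrn4 over WT (2.25 to 10.10) and 2.26 for urt1 xrn4 over xrn4 (1.09 to 4.05). Between urt1 xrn4 and urt1 it was 0.62 (0.13 to 1.11), and for xrn4 over WT, with 6 reads together, 1.95 (-0.77 to 7.96). The 3 comparisons with WT share its library, so all rest on the same single XTH4 read there.

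Many XTH4 reads in urt1 xrn4 and urt1 shared an end with another read. An end is here a combination of A length and extension, and XTH4 had 22 distinct ends in urt1 xrn4, 19 in urt1, 3 in xrn4 and 1 in WT. A tracts ran only from 4 to 30 nt, so separate molecules can share an end and cannot be told from copies. Counting identical reads once thus tends to lower a high count more than a low one. With identical reads counted once, the log2 ratio of XTH4 was 2.07 for urt1 over WT, 2.91 for urt1 xrn4 over WT and 1.49 for urt1 xrn4 over xrn4, so each stayed above 2-fold. The reads came from 2 sequencing lanes, 35 and 35 in urt1 xrn4, 37 and 38 in urt1, 4 and 1 in xrn4 and 0 and 1 in WT. Within lane 1 the ratio of urt1 over WT was 4.10 and within lane 2 it was 2.66.

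XTH7 (AT4G37800), a second endotransglucosylase of the family, had 35 reads in urt1 xrn4 (1331 CPM, 927 to 1851), 55 in urt1 (1268 CPM, 955 to 1650), 2 in xrn4 (204 CPM, 24.7 to 737) and 5 in WT (485 CPM, 158 to 1132). It was thus high in the same libraries as XTH4, but its WT interval overlapped those of urt1 xrn4 and urt1. The log2 ratio was 1.26 for urt1 over WT (0.08 to 3.06), 1.34 for urt1 xrn4 over WT (0.10 to 3.16) and 2.40 for urt1 xrn4 over xrn4 (0.74 to 5.81). Against urt1 the double mutant was at 0.08 (-0.58 to 0.71), and this value turned to -0.40 with TMM scaling. XTH7 had 13 distinct ends in urt1 xrn4, 20 in urt1, 1 in xrn4 and 5 in WT. When identical reads were counted once, the 2-fold difference to WT was gone: the log2 ratio was 0.27 for urt1 and 0.30 for urt1 xrn4, against 1.98 for urt1 xrn4 over xrn4. Such counting lowers a ratio of many reads over few even without copies, so it cannot show that the difference came from copies. In lane 2 alone the 2-fold difference to WT was gone as well, at 0.85 for urt1 and 0.85 for urt1 xrn4, while lane 1 gave 1.48 for urt1 and 1.62 for urt1 xrn4.

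XYL1 (AT1G68560), the alpha-xylosidase, was highest in WT and not in the urt1 mutants. It had 11 reads in urt1 xrn4 (418 CPM, 209 to 748), 15 in urt1 (346 CPM, 193 to 570.2), 0 in xrn4 and 15 in WT (1456 CPM, 815 to 2401). WT was the high library, and its interval did not overlap those of the mutants, and lay above the 306 CPM that 0 reads allow in xrn4. The log2 ratio was -2.07 for urt1 over WT (-3.21 to -0.94) and -1.78 for urt1 xrn4 over WT (-3.07 to -0.58). The level in xrn4 was at least 4.75-fold lower than in WT, and that in urt1 xrn4 at least 1.37-fold higher than in xrn4, both against 3 reads in place of 0 and with the other count taken as exact. The exact log2 interval ended at -1.77 for xrn4 over WT, and that for urt1 xrn4 over xrn4 began at -0.10 and so included no difference. Against urt1 the double mutant was at 0.29 (-0.99 to 1.5), a value that turned to -0.19 with TMM scaling. XYL1 had 6 distinct ends in urt1 xrn4, 9 in urt1 and 7 in WT, and with identical reads counted once its log2 ratio to WT was -1.20 in urt1 xrn4 and -1.29 in urt1. Of the 15 WT reads, 6 were 1 repeated end, an unmodified tract of 5 A.

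**Figure D2:**
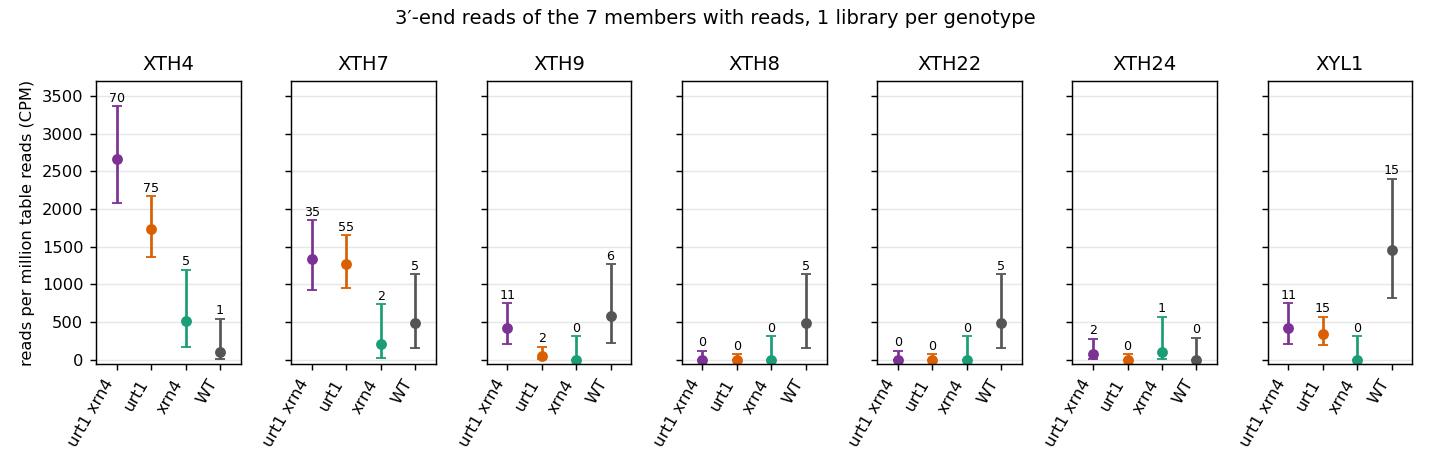
Points give the level (CPM) of each gene with reads in the 4 libraries, bars the exact Poisson 95% interval (for 0 reads, the limit of 3 counts), and the number above each bar the reads. XTH4 and XTH7 stand highest in urt1 xrn4 and urt1, XYL1 in WT, and XTH8 and XTH22 have reads in WT only.

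The remaining XTH genes had few reads. XTH9 (AT4G03210) had 11 in urt1 xrn4 (418 CPM, 209 to 748), 2 in urt1 (46.1 CPM, 5.58 to 167), 0 in xrn4 and 6 in WT (582 CPM, 214 to 1267). Its urt1 interval lay below those of urt1 xrn4 and WT, but 5 of the 6 WT reads were 1 end of 10 A, while the 11 reads of urt1 xrn4 were 9 distinct ends. With 13 reads in both, too few to be compared, the log2 ratio of urt1 xrn4 over urt1 was 2.92 (0.99 to 6.40). XTH8 (AT1G11545) had 5 reads in WT, which were 4 distinct ends, and 0 in the other 3 libraries. XTH22 (AT5G57560), known as TCH4 and induced by touch, had the same counts, with 2 distinct ends in WT. With 3 reads in place of 0, and the 5 WT reads taken as exact, both genes were at least 4.25-fold lower in urt1 xrn4, at least 7.02-fold lower in urt1 and at least 1.58-fold lower in xrn4. The counting error of the WT reads widens this: the exact log2 interval of the ratio to WT ended at -1.23 for urt1 xrn4, at -1.95 for urt1 and at 0.20 for xrn4, the last of which included no difference. XTH8 tails in WT were long, at 19 to 22 A, and those of XTH22 were 4 of 11 A and 1 of 16 A. XTH24 (AT4G30270, also MERI5B) had 2 reads in urt1 xrn4, 1 in xrn4 and 0 in urt1 and WT, at or under the 3-read limit throughout. XTH5 (AT5G13870) and XTH15 (AT4G14130, also XTR7) had 0 reads in all 4 libraries, so a level below the limits given above is all that can be said of them. In the RefSeq transcripts of TAIR10.1, none of the 276 sequences of 25 bases in the last 300 bases of each of the 9 genes occurred in a transcript of another gene.

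Genes were compared between libraries where both together gave at least 20 reads, and a gene was counted as called where its share of reads was higher or lower by 2-fold or more. For urt1 over WT, 3 of the 9 genes met the minimum; XTH4 and XTH7 were called higher and XYL1 lower. Over all 440 genes tested, 28.2% were called higher and 12.5% lower. XTH4 and XTH7 met the minimum only through the deeper urt1 library, in which they were high, while XTH8, XTH9 and XTH22, with more reads in WT, did not meet it. With no minimum, 2 of 6 genes were past 2-fold higher and 4 lower. The same 3 genes were tested for urt1 xrn4 over WT and had the same calls, beside 33% higher and 13% lower among 315 genes, and there too XTH4 and XTH7 met the minimum through the library in which they were high. Both genes tested for urt1 xrn4 over xrn4, XTH4 and XTH7, were called higher, beside 34.3% higher and 18.3% lower among 327 genes. Both met the minimum only through urt1 xrn4, so the filter left little room for another call. For urt1 xrn4 over urt1 none of the 3 tested was called, where 14.4% of 598 genes were higher and 13.7% lower. For xrn4 over WT no gene of the 9 reached 20 reads, while 18.8% of 138 genes were called higher and 18.1% lower. Many genes were past 2-fold in these comparisons, so the calls do not set the 9 genes apart.

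**Figure D3:**
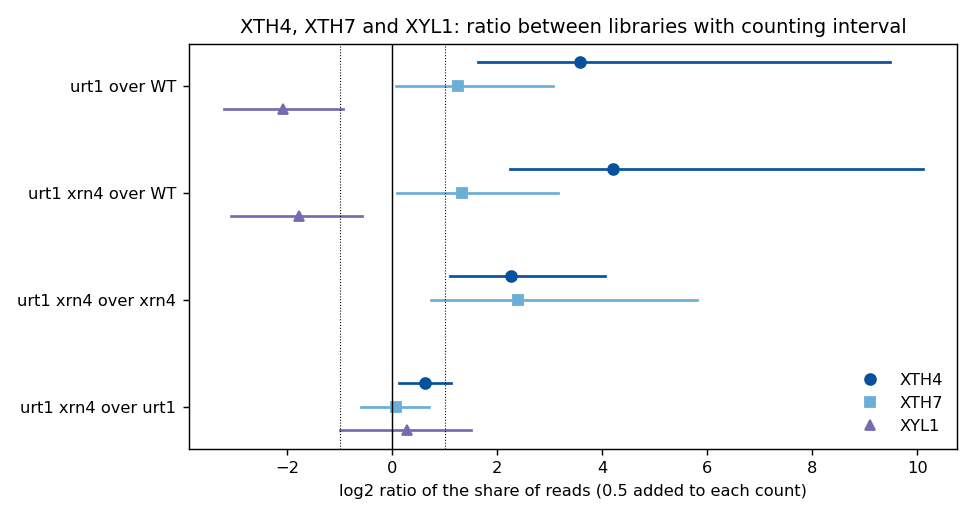
Each symbol is the log2 ratio of a gene's share of reads between 2 libraries (first named over second, 0.5 added to each count) and each line the exact conditional binomial 95% interval, for genes with at least 20 reads in both together. XTH4 and XTH7 lie right of 0 and XYL1 left of 0 against WT, and all 3 lie within 2-fold between urt1 xrn4 and urt1 (dotted lines mark 2-fold).

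The summed level of the green tissue markers, given above, was lowest in urt1 xrn4 and highest in WT, the reverse of XTH4. None of the 6 markers followed the whole order of that sum. RBCS1A and RCA were highest in xrn4, and LHCB2.2 was higher in urt1 than in xrn4. CA1 had 1597 CPM in urt1 xrn4, 2120.3 in urt1, 2449.7 in xrn4 and 1359 in WT. PSAG was highest in urt1 and lowest in xrn4, and LHCA3 was lowest in xrn4. The part of these markers in the differences was not tested. TMM scaling shifted all log2 ratios of urt1 over WT by 0.92, of urt1 xrn4 over WT by 0.44, of urt1 xrn4 over xrn4 by 0.38 and of urt1 xrn4 over urt1 by -0.48. The calls of XTH4 and XTH7 as higher and of XYL1 as lower held under it, with log2 ratios for urt1 over WT of 4.50, 2.18 and -1.16. The ratio of the 9 genes together, -0.10 for urt1 over WT (-0.61 to 0.48), turned to 0.82.

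Counted by reads, uridylated tails of XTH4 and XTH7 were rarer than those of the median gene in both libraries where these genes had many reads. In the table, 13.4% of reads in urt1 xrn4 carried a U extension, 6.87% in urt1, 40.2% in xrn4 and 31.7% in WT. XTH4 had 3 of 70 tails uridylated in urt1 xrn4 (4.29%; exact interval 0.893 to 12.0) and 2 of 75 in urt1 (2.67%; 0.325 to 9.30), with 0 of 5 in xrn4 and 0 of 1 in WT. XTH7 had 1 of 35 in urt1 xrn4, 1 of 55 in urt1, 0 of 2 in xrn4 and 0 of 5 in WT. Among genes with at least 30 reads the median was 6.25% in urt1 xrn4, where 78 of 123 other genes lay above XTH4 and 89 above XTH7. In urt1 the median was 3.77%, with 144 of 221 other genes above XTH4 and 161 above XTH7. The exact intervals of both genes included the median in both libraries. Each uridylated read of the pair was its own end, while unmodified ends repeated. By ends, XTH4 thus had 3 of 22 uridylated in urt1 xrn4 and 2 of 19 in urt1, and XTH7 1 of 13 and 1 of 20. The median gene was not counted by ends. In WT none of the 6 reads of the pair was uridylated, which allows a share of up to 50%, so a difference from the mutants was not detectable at this depth.

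Counted by reads, XYL1 had the highest uridylated share of the 9 genes in each of the 3 libraries that held it. It had 4 of 11 tails uridylated in urt1 xrn4 (36.4%; 10.9 to 69.2), 5 of 15 in urt1 (33.3%; 11.8 to 61.6) and 3 of 15 in WT (20%; 4.33 to 48.1). These reads held few distinct ends, 2 of the 6 ends of XYL1 in urt1 xrn4, 2 of 9 in urt1 and 1 of 7 in WT. Counted by ends, XTH9 was level with XYL1 in urt1 xrn4, with 3 of 9, and above it in WT, with 1 of 2. The difference from WT was 16.4 percentage points in urt1 xrn4 (Newcombe 95% interval -16.6 to 47.4) and 13.3 points in urt1 (-17.7 to 41.4). The median gene differed by -9.46 points in urt1 xrn4 and by -12.1 points in urt1. These wide intervals include both a gain and a loss of the size seen in the median gene. XTH9 had 3 of 11 in urt1 xrn4, 0 of 2 in urt1 and 1 of 6 in WT, and XTH8 and XTH22 had 0 of 5 each in WT, which allows a share of up to 60%.

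For genes with 10 or more tails in each library, a change was counted where the interval of the difference excluded 0. That was so for XYL1, the 1 member tested, neither in urt1 against WT nor in urt1 xrn4 against WT, where it was so for 48.3% of 143 and 40% of 125 genes. Between urt1 xrn4 and urt1 it was so for none of XTH4, XTH7 and XYL1, beside 18.6% of 415 genes. Their differences there were 1.62 points for XTH4 (-5.51 to 9.44), 1.04 for XTH7 (-7.10 to 12.8) and 3.03 for XYL1 (-29.7 to 36.6).

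The tails themselves are shown because the number of reads behind a uridylated share is so small that each tail counts. Written 5′ to 3′ from the A length and the extension in the table, with the A tract in lower case and the added nucleotides in capitals (T stands for U), the tails with U only were as follows.
XTH4 in urt1 xrn4, 1 read: aaaaaaaaaaaaaaTT
XTH4 in urt1 xrn4, 1 read: aaaaaaaaaaaaaaaaT
XTH4 in urt1 xrn4, 1 read: aaaaaaaaaaaaaaaaaaaaaaTT
XTH4 in urt1, 1 read: aaaaaaaaaaaaaaaT
XTH4 in urt1, 1 read: aaaaaaaaaaT
XTH7 in urt1 xrn4, 1 read: aaaaaaaaTT
XTH9 in urt1 xrn4, 1 read: aaaaaaaaTTT
XTH9 in WT, 1 read: aaaaaaaaaaaaaaaT
XYL1 in urt1 xrn4, 3 reads: aaaaaTTTTTT
XYL1 in urt1 xrn4, 1 read: aaaaaaaaaaT
XYL1 in urt1, 2 reads: aaaaaaaaaaaaaaaaaaTT
XYL1 in WT, 3 reads: aaaaaaaaaaaaaTT

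The longest run of U was the 6 of XYL1 in urt1 xrn4, on a tract of 5 A, read 3 times as 1 distinct end. The other extensions of this kind held 1 to 3 U. The remaining U extensions contained A as well: AT on 3 XYL1 reads of 12 A in urt1, AT on 2 XTH9 reads in urt1 xrn4 and AAT on 1 XTH7 read of 9 A in urt1. The table does not say in which direction these mixed strings are written, so they are given as composition only.

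Some XTH tails carried G or C in place of U. XTH7 carried G on 2 of 35 tails in urt1 xrn4 and on 7 of 55 in urt1 (12.7%), with 0 in xrn4 and WT; of the 7, 4 were 1 repeated end with a tract of 12 A. The median gene with at least 30 reads in urt1 had 3.48%, and 194 of 221 other genes lay below XTH7. In urt1 xrn4 XTH7 was nearer to the median, with 5.71% against 4.23% and 74 of 123 other genes below it. XTH4 carried G on 3 of 70 tails in urt1 xrn4 (4.29%) and on 0 of 75 in urt1, and C on 5 of 75 in urt1, of which 4 were 1 repeated end with a tract of 4 A. In the whole table G extensions made up 6.0% of reads in urt1 xrn4, 5.94% in urt1, 5.59% in xrn4 and 4.93% in WT.

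A tracts of XTH7 were long for the table. They averaged 18.5 ± 3.9 nt in urt1 xrn4 (SD over 35 reads) and 18.5 ± 5.6 nt in urt1 (SD over 55 reads), with 18.0 nt in xrn4 (2 reads) and 19.4 nt in WT (5 reads). Among genes with at least 30 reads the median of the mean A length was 15.3 nt in urt1 xrn4, where 116 of 123 other genes lay below XTH7, and 16.0 nt in urt1, where 211 of 221 did. XTH4 was nearer to the median gene, with 16.1 ± 4.8 nt in urt1 xrn4 (SD over 70 reads) and 16.8 ± 5.5 nt in urt1 (SD over 75 reads). In urt1 xrn4, 29 of the 35 XTH7 tails had 15 to 20 A (82.9%), a window chosen after the values were seen, against 36.1% of all reads of that library. In urt1 this was so for 22 of 55 (40%), close to the 38.9% of the library. Reads are not replicates, and these spreads describe single libraries.

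Counted by reads, XYL1 tails were shorter than those of XTH4 and XTH7. They averaged 13.4 ± 6.0 nt in urt1 xrn4 (SD over 11 reads), 14.9 ± 3.7 nt in urt1 and 11.6 ± 7.1 nt in WT (SD over 15 reads each). All reads of these libraries averaged 14.3 nt in urt1 xrn4, 14.9 in urt1 and 15.5 in WT. With each end counted once, XYL1 was at 14.7 nt in urt1 xrn4 and 15.6 in urt1, nearer to XTH4 at 16.8 and 15.9. Tails of 4 to 9 A numbered 3 of 11 in urt1 xrn4 and 0 of 15 in urt1, against 7 of 15 in WT, of which 6 were the repeated end of 5 A; the 3 in urt1 xrn4 were also 1 repeated end. A difference of at least 2 nt in mean A length was counted for the same genes. XYL1 was 3.27 nt longer in urt1 than in WT and thus past it, as were 41.3% of 143 genes in either direction. This rested on the repeated end: with each end counted once the means were 15.6 nt in urt1 and 14.7 nt in WT, a difference of 0.841 nt, not past 2 nt. It was 1.76 nt longer in urt1 xrn4 than in WT, not past it, beside 51.2% of 125 genes. Between urt1 xrn4 and urt1 none of the 3 genes was past 2 nt, with -0.73 for XTH4, 0.01 for XTH7 and -1.5 for XYL1, beside 41.2% of 415 genes.

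**Figure D4:**
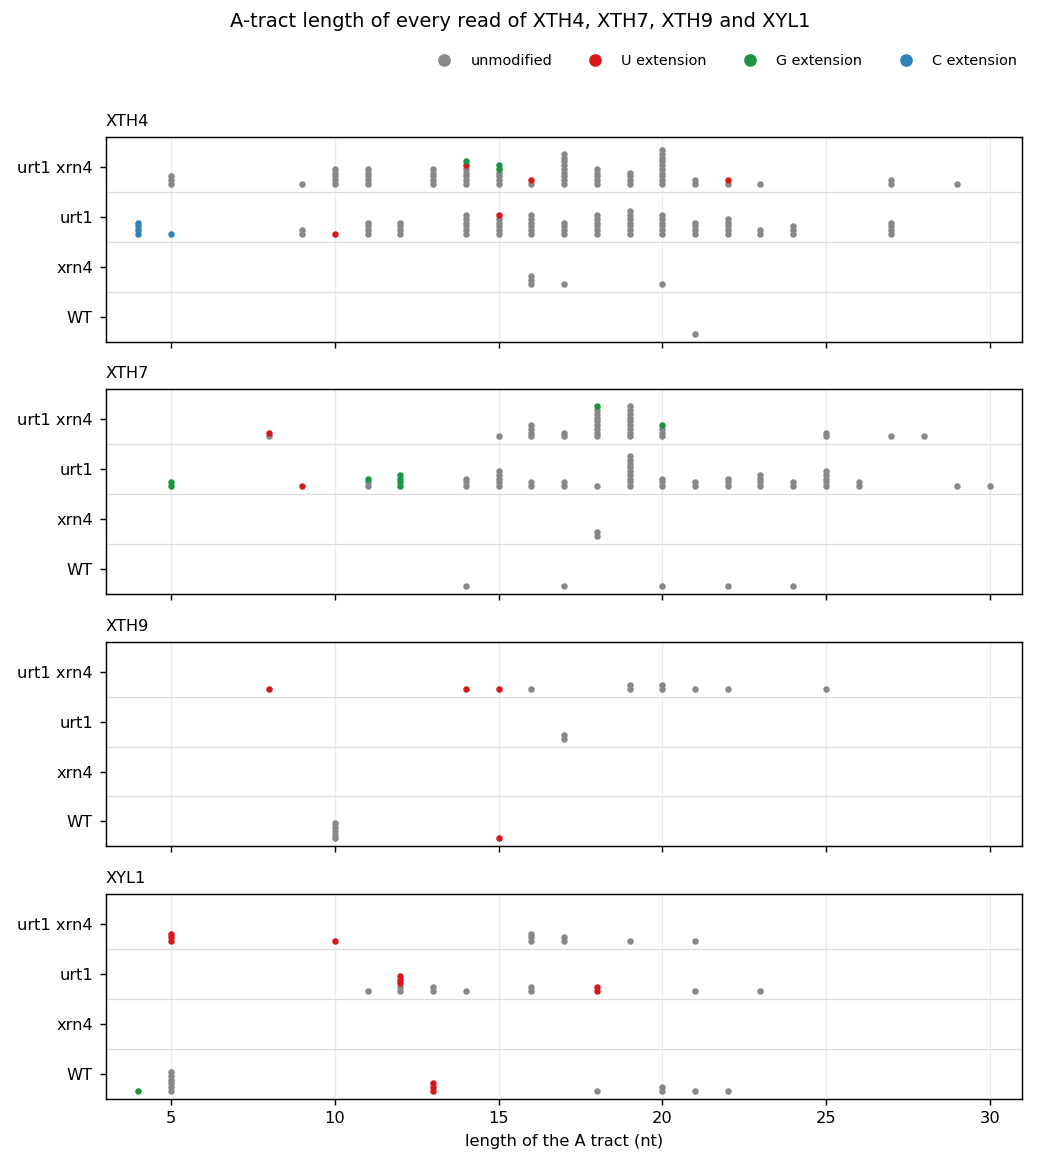
Each point is 1 read of XTH4, XTH7, XTH9 or XYL1, placed by the length of its A tract in nt and stacked within its library, with colour for the kind of extension. XTH7 tails of urt1 xrn4 gather at 15 to 20 A (29 of 35), the 5 C extensions of XTH4 in urt1 sit on tracts of 4 or 5 A, and 6 of the 15 WT reads of XYL1 are unmodified tracts of 5 A.

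The patterns most like those of XTH4 and XTH7 over the 4 libraries were looked up by the root mean square distance of centred log2 CPM, among 276 other genes with at least 50 reads. Nearest to XTH4 were AT4G01150 (a protein like CURVATURE THYLAKOID 1A in RefSeq; distance 0.20), AT3G07950 (rhomboid protein-like; 0.42) and CP12-1 (AT2G47400, which binds enzymes of carbon fixation; 0.48). AT4G01150 had 22 reads in urt1 xrn4, 28 in urt1, 2 in xrn4 and 0 in WT. Nearest to XTH7 were AT4G39200 (ribosomal protein S25; 0.22), AT4G40040 (histone superfamily; 0.27) and AT3G53430 (ribosomal protein L11 family; 0.28). XTH7 itself ranked 54 among the genes nearest to XTH4, with a distance of 1.21, and XTH4 ranked 180 among those nearest to XTH7. These distances describe 4 libraries with few reads per gene.

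The other 25 genes of the XTH family were not among the 9. Of these, 7 had reads, with 29 reads in urt1 xrn4 (1103 CPM), 51 in urt1 (1175 CPM), 5 in xrn4 (510.4 CPM) and 3 in WT (291 CPM). XTH6 (AT5G65730) had the most, with 17 reads in urt1 xrn4 (646 CPM), 29 in urt1 (668 CPM) and 0 in xrn4 and WT. It had 10 distinct ends in urt1 xrn4 and 14 in urt1, and, with 3 WT reads in place of 0 and its own counts taken as exact, its level was at least 2.22-fold higher in urt1 xrn4 and at least 2.30-fold higher in urt1 than in WT. Reads of XTH27 (AT2G01850) numbered 4 in urt1 xrn4, 15 in urt1, 2 in xrn4 and 0 in WT. XTH28 (AT1G14720) and XTH30 (AT1G32170) had 6 reads each over the 4 libraries. XTH6 was the 1 gene of these to reach 20 reads together with WT, and it did so through urt1 alone, so its call as higher there was fixed by the minimum. It was not called for urt1 xrn4 over urt1.

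Other cell wall genes did not share 1 direction. Of 11 genes of xyloglucan synthesis and trimming 10 had reads. Together they had 837 CPM in urt1 xrn4 (524 to 1266), 645 in urt1 (429 to 933), 919 in xrn4 (420.1 to 1744) and 97.0 in WT (2.46 to 541). WT was the low library, on 1 read, and the intervals overlapped throughout. XXT2 (AT4G02500), a xyloglucan xylosyltransferase, had 18 reads in urt1 xrn4, 7 in urt1, 4 in xrn4 and 0 in WT. It was called higher for urt1 xrn4 over urt1 (log2 ratio 2.02) and not called over xrn4 (0.61), the 2 comparisons in which it was tested. The others named by read number were CSLC4 (AT3G28180, a xyloglucan backbone synthase) with 8 reads, MUR3 (AT2G20370, a galactosyltransferase) with 6 and AXY4 (AT1G70230, which acetylates xyloglucan) with 5. Expansins, which loosen walls without cutting chains, had 3308 CPM in urt1 xrn4 (2650 to 4080), 2604 in urt1 (2146 to 3131), 1939 in xrn4 (1168 to 3029) and 2717 in WT (1806 to 3927), with overlapping intervals throughout. Of the 24 expansins 13 had reads. For urt1 over WT 0 of 4 tested were called higher and 1 lower, beside 28.2% and 12.5% of all genes tested. For urt1 xrn4 over WT 0 of 2 were called, beside 33% higher and 13% lower. For urt1 xrn4 over xrn4 1 of 2 was called higher, beside 34.3%. Over urt1 2 of 6 were called higher and 1 lower, beside 14.4% and 13.7%. The 1 called over xrn4 was EXPA1, which met the minimum only through urt1 xrn4. EXPA1 was also called higher over urt1, where its urt1 xrn4 reads alone met the minimum. The other gene called higher over urt1 had 15 reads in urt1 xrn4 and 5 in urt1. The gene called lower had 3 in urt1 xrn4 and 17 in urt1. Both thus reached the minimum mostly through the library in which they were high. EXPA1 (AT1G69530) had 24 in urt1 xrn4, 11 in urt1, 2 in xrn4 and 6 in WT. EXPA11 (AT1G20190) had 14 in urt1 xrn4, 22 in urt1, 1 in xrn4 and 6 in WT. EXPA8 (AT2G40610) had 13 in urt1 xrn4, 19 in urt1, 0 in xrn4 and 2 in WT, and EXPB3 (AT4G28250) had 5 in urt1 xrn4, 11 in urt1, 0 in xrn4 and 11 in WT.

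The 12 cellulose synthesis genes, 9 of them with reads, had 1293 CPM in urt1 xrn4 (895 to 1807), 1752 in urt1 (1380.0 to 2192), 919 in xrn4 (420.1 to 1744) and 3106 in WT (2124 to 4384). WT was the high library, its interval above that of urt1 xrn4 and xrn4, which is also where XYL1 was highest. For urt1 over WT 1 of 3 tested was called higher and 1 lower, beside 28.2% and 12.5% of all genes tested. The 1 called higher was CTL1, which met the minimum only through urt1. For urt1 xrn4 over urt1 1 of 2 was called lower, beside 13.7%. This was CESA3, which met the minimum only through urt1, the library in which it was high. CESA6 (AT5G64740) had 5 reads in urt1 xrn4, 11 in urt1, 1 in xrn4 and 11 in WT, and CESA3 (AT5G05170), another subunit of the primary wall synthase, had 4 in urt1 xrn4, 26 in urt1, 2 in xrn4 and 9 in WT. CTL1 (AT1G05850), a chitinase-like protein needed for cellulose deposition, had 7 in urt1 xrn4, 23 in urt1, 0 in xrn4 and 1 in WT. KOR1 (AT5G49720), an endoglucanase of the synthase complex, had 12 in urt1 xrn4, 5 in urt1, 2 in xrn4 and 0 in WT.

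Of 19 fasciclin-like and arabinogalactan proteins, which are secreted glycoproteins of the wall, 12 had reads. Together they had 3118 CPM in urt1 xrn4 (2480 to 3870), 3111 in urt1 (2609 to 3683), 2450 in xrn4 (1570 to 3645) and 1650 in WT (961 to 2642). WT was the low library, with overlapping intervals throughout. FLA2 (AT4G12730) had 30 in urt1 xrn4, 52 in urt1, 6 in xrn4 and 9 in WT, and FLA1 (AT5G55730) had 13 in urt1 xrn4, 31 in urt1, 13 in xrn4 and 2 in WT. AGP15 (AT5G11740) had 14 in urt1 xrn4, 4 in urt1, 5 in xrn4 and 0 in WT, and FLA9 (AT1G03870) had 5 in urt1 xrn4, 16 in urt1, 0 in xrn4 and 0 in WT. For urt1 over WT 1 of 2 tested was called higher, beside 28.2% of all genes tested. This was FLA1, which met the minimum only through urt1. For urt1 xrn4 over xrn4 1 of 2 was called lower, beside 18.3%. For urt1 xrn4 the 1 gene tested over WT and the 3 tested over urt1 were not called. Of 11 pectin methylesterases and lyases 6 had reads. Together they had 494 CPM in urt1 xrn4 (263 to 845), 576 in urt1 (373 to 851), 510 in xrn4 (166 to 1191) and 970 in WT (465 to 1785). WT was the high library, with overlapping intervals throughout. PME3 (AT3G14310) had 8 reads in urt1 xrn4, 16 in urt1, 0 in xrn4 and 0 in WT. PLL19 (AT4G24780), a pectate lyase-like gene, had 1 in urt1 xrn4, 4 in urt1, 5 in xrn4 and 9 in WT. PME44 (AT4G33220) had 5 reads and PME1 (AT1G53840) 3, all in urt1 xrn4 or urt1. PME3 was the 1 gene tested, for urt1 xrn4 over urt1, and was not called.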

How the data were processed

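TAIL-seq libraries from total RNA were made, 1 per genotype, as the labels' protocols state. The build TAIR10 and the tools bedtools 2.17.5, Bowtie2, TopHat2 2.0.9 and CASAVA 1.8.2 are named, without their roles, per the submitters' processing notes; filters and the way tails were called are not stated there. The authors deposited a table with a line for each read that holds its genotype, locus, A-tract length in nucleotides, added nucleotides and category, and no other score. Its genotype UX was taken as urt1 xrn4, since the other 3 names equal the other 3 sample titles. Reads were counted per library and locus; ratios use each library's table total with 0.5 added to each count. The 95% intervals (exact Poisson, exact conditional binomial, Clopper-Pearson, Newcombe) cover counting error only, since reads carry no molecular identifiers in the table. All 5 comparisons were computed over all genes, with scripts tested on simulated counts. Members and gene lists were chosen with earlier results of these data known. The text names all 9 members, up to 4 genes with the most reads per list, and the 3 genes nearest in pattern to each member with at least 50 reads. Gene names come from RefSeq (TAIR10.1), which matched 8310 of 8346 loci; its build name differs from TAIR10, so coordinates are left out. Alternatives were identical reads counted once, tails of 25 A or fewer, TMM or median of ratios scaling, 1 added to each count, other minima of reads, extensions of U only, unmodified tails only, a mean over members, and, chosen after seeing the data, each sequencing lane alone and A lengths of single genes with each end counted once. Python 3.11.15, numpy 2.4.6, pandas 2.3.3, scipy 1.17.1 and matplotlib 3.10.9 were used.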

Additional observations from a re-analysis of the deposited data

Results flagged for a closer look

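For 2 of the 3 genes with at least 20 reads over the 4 libraries, the fitted log2 ratios (0.5 added to each count) of 1 mutation had opposite signs in the 2 backgrounds, but in each pair at least 1 counting interval included no difference, so no opposite direction is shown. XYL1 was at -2.07 for urt1 over WT (-3.21 to -0.94) and at 3.10 for urt1 xrn4 over xrn4, where xrn4 had 0 reads and the interval began at -0.10. For xrn4 over WT XYL1 was at -4.88, again with 0 reads in xrn4 and an interval ending at -1.77, and for urt1 xrn4 over urt1 at 0.29 (-0.99 to 1.5). XTH7 was at -1.06 for xrn4 over WT on 7 reads (-4.64 to 1.36) and at 0.08 for urt1 xrn4 over urt1 (-0.58 to 0.71). Both values for urt1 xrn4 over urt1 were below 0 with TMM scaling. Values fitted against 0 reads depend on the count added and are no bounds. The differences were not tested.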

How the results depend on the processing

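No paired analysis was possible because each genotype has 1 library. No result changed direction among those past 2-fold, and the log2 ratios of XTH4, XTH7 and XYL1 under other settings all lay within the 95% interval of the reported value; the mean A length of XYL1 in urt1 minus WT fell under 2 nt, to 0.841, with each end counted once (chosen after seeing the data). Of 163 other values, 134 lay within that interval or, for counts of genes, within a factor of 1.5. With identical reads counted once, 1 gene was called higher for urt1 over WT and 0 lower, 1 higher and 0 lower for urt1 xrn4 over WT, and 1 higher for urt1 xrn4 over xrn4; uridylation over the 9 genes in urt1 xrn4 was 17.3% and mean A length in WT 16.9 nt. Fewer genes reach 20 reads in this setting and with single lanes. Counting identical reads once also tends to lower high counts more than low ones. In lane 2, 1 gene was higher and 0 lower for urt1 over WT and for urt1 xrn4 over WT, and 1 higher for urt1 xrn4 over xrn4; in lane 1, 0 were lower in both comparisons with WT. With a minimum of 50 reads, 0 were lower for urt1 over WT, 1 higher and 0 lower for urt1 xrn4 over WT, and 1 higher for urt1 xrn4 over xrn4. With no minimum, 4 were lower for urt1 over WT, 2 higher and 5 lower for xrn4 over WT, 3 lower for urt1 xrn4 over WT, 4 higher for urt1 xrn4 over xrn4 and 2 higher for urt1 xrn4 over urt1. TMM scaling moved the log2 ratio of the 9 genes together to 0.82 for urt1 over WT and to 0.057 for urt1 xrn4 over urt1. As a mean over genes with at least 5 reads, uridylation was 17.7% in urt1 xrn4 and 12.6% in urt1, and mean A length of unmodified tails in urt1 was 18.4 nt. Depth limits xrn4 and WT most, with 8 reads of the 9 genes in xrn4 and 37 in WT.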
